A study of Homo sapiens with 6 samples.

Results

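The 35 interferon-stimulated genes described here were chosen by symbol, with earlier results of these data known. Shares set beside those of all probe sets are therefore descriptions. Each gene was found as 1 probe set among the 17687 distinct gene symbols of the arrays. The study used K562, an established human erythroleukaemia line labelled as bone marrow in origin, and compared cells that carry a control vector with cells that carry a vector for the microRNA miR-543, on 3 single-colour arrays per vector. All 6 samples are untreated beyond their vector as far as the labels say, and the vector type, its promoter, the time in culture and whether the cells are clones are not given in the sources used here. Values are log2 signals, so a difference of 1 is a 2-fold difference. Separate cultures are not stated for the replicates, so a p-value measures spread among these arrays only, and that spread may be technical.

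Interferons are secreted when a cell senses viral nucleic acid. They bind receptors that signal through JAK kinases to a transcription factor complex that includes IRF9, which binds interferon-stimulated response elements in promoters and switches on a large set of genes. Many of their products block viral entry, translation, replication or budding, and others sense RNA or damp the response. K562 cells are known to lack the cluster of type I interferon genes on the short arm of chromosome 9.

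The miR-543 vector is named for the microRNA printed here, whose seed, bases 2 to 8, is in capitals (RefSeq, GRCh38.p14, chr14:101032033-101032054, plus strand). No probe set bore its name, so its own level was not analysed here.
hsa-miR-543: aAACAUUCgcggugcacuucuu

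A sequence feature that the choice of genes did not use is the core of the response element: GAAA, then 2 bases of any kind, then GAAA. RefSeq promoters, running from 250 bases before to 50 bases after the gene start, were held for 26 of the 35 genes, and the core was found on either strand in 18 of them (69.2%), beside 3.65% of all 27305 promoters of that length. The gamma-activated site, TTCNNNGAA, was found in 7 of 26 (26.9%), beside 7.88% of all. The matches to the response element core numbered 35, overlapping ones counted apart, with 21 on the gene's strand, and 34 of them began before the gene start, at a median of 105 bases. Among the other interferon-induced genes listed for comparison, 14 of 25 promoters (56.0%) held the core. The 5 promoters shown belong to the 1 member that passed the test, to its neighbouring paralog, and to 3 members that stand for a sensor, an effector and an entry inhibitor, with each match to that core on either strand in capitals.
SAMD9L promoter, chr7:93148336-93148635, minus strand: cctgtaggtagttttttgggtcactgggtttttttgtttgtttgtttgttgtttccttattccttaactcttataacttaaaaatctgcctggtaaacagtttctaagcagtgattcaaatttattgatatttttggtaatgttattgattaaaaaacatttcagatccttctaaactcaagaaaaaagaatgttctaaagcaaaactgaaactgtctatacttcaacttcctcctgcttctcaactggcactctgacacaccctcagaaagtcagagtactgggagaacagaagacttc
SAMD9 promoter, chr7:93117930-93118229, minus strand: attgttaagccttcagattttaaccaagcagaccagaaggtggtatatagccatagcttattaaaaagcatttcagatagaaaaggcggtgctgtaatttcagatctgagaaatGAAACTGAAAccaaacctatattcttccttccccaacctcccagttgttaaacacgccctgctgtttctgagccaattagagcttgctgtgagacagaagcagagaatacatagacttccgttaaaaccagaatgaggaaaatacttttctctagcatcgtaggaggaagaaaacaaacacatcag
IFIH1 promoter, chr2:162318635-162318934, minus strand: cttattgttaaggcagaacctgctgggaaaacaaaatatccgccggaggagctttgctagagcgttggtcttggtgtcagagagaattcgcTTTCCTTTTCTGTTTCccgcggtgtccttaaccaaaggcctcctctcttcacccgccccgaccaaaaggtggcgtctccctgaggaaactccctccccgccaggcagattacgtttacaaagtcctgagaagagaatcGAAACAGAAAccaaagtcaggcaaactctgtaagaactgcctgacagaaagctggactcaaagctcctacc
IFI6 promoter, chr1:27672143-27672442, minus strand: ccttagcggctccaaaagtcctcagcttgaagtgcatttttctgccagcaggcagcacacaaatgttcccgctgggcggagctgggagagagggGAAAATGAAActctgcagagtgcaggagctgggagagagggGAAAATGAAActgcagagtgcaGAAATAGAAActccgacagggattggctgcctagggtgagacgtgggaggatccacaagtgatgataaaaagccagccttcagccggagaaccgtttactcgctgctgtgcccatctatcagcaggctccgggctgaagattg
IFITM1 promoter, chr11:313790-314089, plus strand: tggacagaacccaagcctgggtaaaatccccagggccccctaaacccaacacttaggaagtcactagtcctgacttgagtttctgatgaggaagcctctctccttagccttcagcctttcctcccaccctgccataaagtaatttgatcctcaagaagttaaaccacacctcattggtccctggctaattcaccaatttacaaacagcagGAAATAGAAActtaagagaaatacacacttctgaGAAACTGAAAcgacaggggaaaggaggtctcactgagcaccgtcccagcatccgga
IFI6 holds 3 matches, which begin 156, 115 and 93 bases before its start, and IFITM1 holds 2, which begin 40 and 6 bases before. In IFIH1 a match lies 21 bases before the start, and 2 overlapping ones on the other strand lie farther upstream. SAMD9 holds 1, which begins 136 bases before the start, and the window of SAMD9L holds none. A match describes these letters and is not evidence of a bound site. CpG dinucleotides were sparse, with a median observed over expected ratio of 0.351 in the 26 promoters and 0.580 in all promoters. Their methylation was not measured.

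In these cells 13 of the 35 genes (37.1%) had a mean over the 6 arrays above the mean array median of 5.999, as had 49.99% of all probe sets. Of the 22 others, 13 lay between the lower quartile of 4.003 and the median, and 9 lay under the lower quartile. The files hold no detection calls, so these are levels and not calls of presence. Nearest the line were IFIT3 at 6.13 and RSAD2 at 6.24 above it, and DHX58 at 5.98 and SAMD9L at 5.87 below it. For scale, the 15 probe sets of IFNA genes, IFNB1 and IFNW1 averaged 3.00 to 5.98. Of the 35 members 17 averaged within that range, 4 under it and 14 above it. Probe sets of different sequence differ in brightness, so this is a description and no ranking.

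With the miR-543 vector 1 of the 35 genes was called, SAMD9L, which rose, and 0 fell, beside calls for 0.569% of all probe sets, 0.131% upward and 0.438% downward (limma, adjusted p under 0.05). At an unadjusted p under 0.05 there were 8 members (22.9%), 4 higher and 4 lower, beside 10.6% of all probe sets (5.40% higher and 5.21% lower), and this count was 5 without control replicate 1 and 5 without miR-543 replicate 2. The higher ones were SAMD9L, DHX58, IFI6 and IFI27, and the lower ones IFIH1, IFIT2, SAMD9 and PARP9. The 3 arrays of 1 vector lay wholly above those of the other for 7 of the 35 members and for 15.4% of all probe sets. Log2 changes were above 0 for 20 members (57.1%) and for 52.3% of all probe sets, with medians of 0.04 and 0.01. A 2-fold change in either direction lay outside the 95% interval of 33 members (94.3%), as it did for 96.6% of all probe sets. The exceptions were SAMD9L, whose interval reached 1.35, and IFIH1, whose interval reached -1.14. Changes can be compressed at low signal, so for the 22 members not above the array median the intervals describe signal only.

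**Figure D1:**
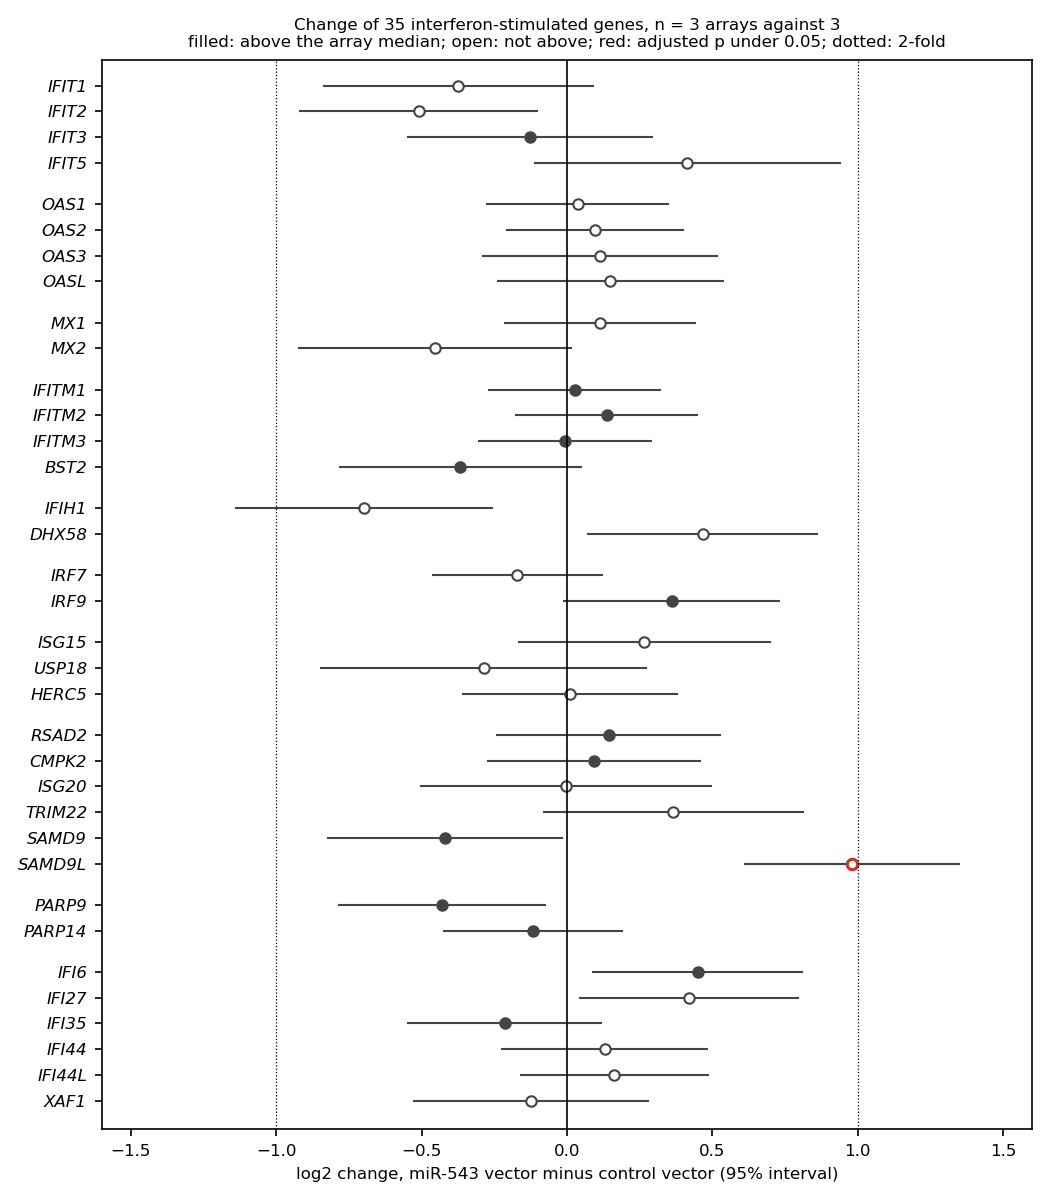
Log2 change of each of the 35 genes, miR-543 vector minus control vector, with its 95% interval (n = 3 arrays against 3), grouped by role. Filled points mark the 13 genes above the array median, and SAMD9L, in red, is the 1 gene with an adjusted p under 0.05.

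SAMD9L and SAMD9 are neighbouring genes on chromosome 7 that encode related cytoplasmic proteins with antiviral and growth-restraining roles, and inherited activating changes in either cause bone marrow failure with loss of chromosome 7. SAMD9L read 5.32, 5.34 and 5.48 on the control arrays and 6.20, 6.68 and 6.20 on the miR-543 arrays. All 3 miR-543 arrays lay above all 3 control arrays, the former over the array median and the latter under it. The rise was 0.98 on the log2 scale (SE 0.17, 95% interval 0.61 to 1.35), or 1.97-fold, with an adjusted p of 0.0347. An exact permutation test gave p = 0.1, the smallest that 3 arrays against 3 allow. The call was lost without any 1 array, at adjusted p-values of 0.160, 0.131 and 0.0994 when control replicate 1, 2 or 3 was left out and 0.0768, 0.103 and 0.0687 when miR-543 replicate 1, 2 or 3 was, while the change stayed between 0.82 and 1.06.

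SAMD9 read 6.92, 6.84 and 6.38 on the control arrays and 6.52, 6.13 and 6.23 on the miR-543 arrays. The groups overlapped, and the log2 change of -0.42 (95% interval -0.82 to -0.02) did not pass (adjusted p = 0.455). The change of SAMD9L minus that of SAMD9 was 1.40 (exact permutation p = 0.1). This was 1 of 12 differences between neighbouring members, taken as consecutive members along a chromosome with at most 2 protein-coding genes between them. These differences involve 20 of the 35 genes, and members with another member between them were not compared. Of these pairs 4 had changes of opposite sign. IFIT5 differed from IFIT1 by 0.79 and MX1 from MX2 by 0.57, each with an exact permutation p of 0.1, and for all 3 pairs the Benjamini-Hochberg value over the 12 was 0.4.

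**Figure D2:**
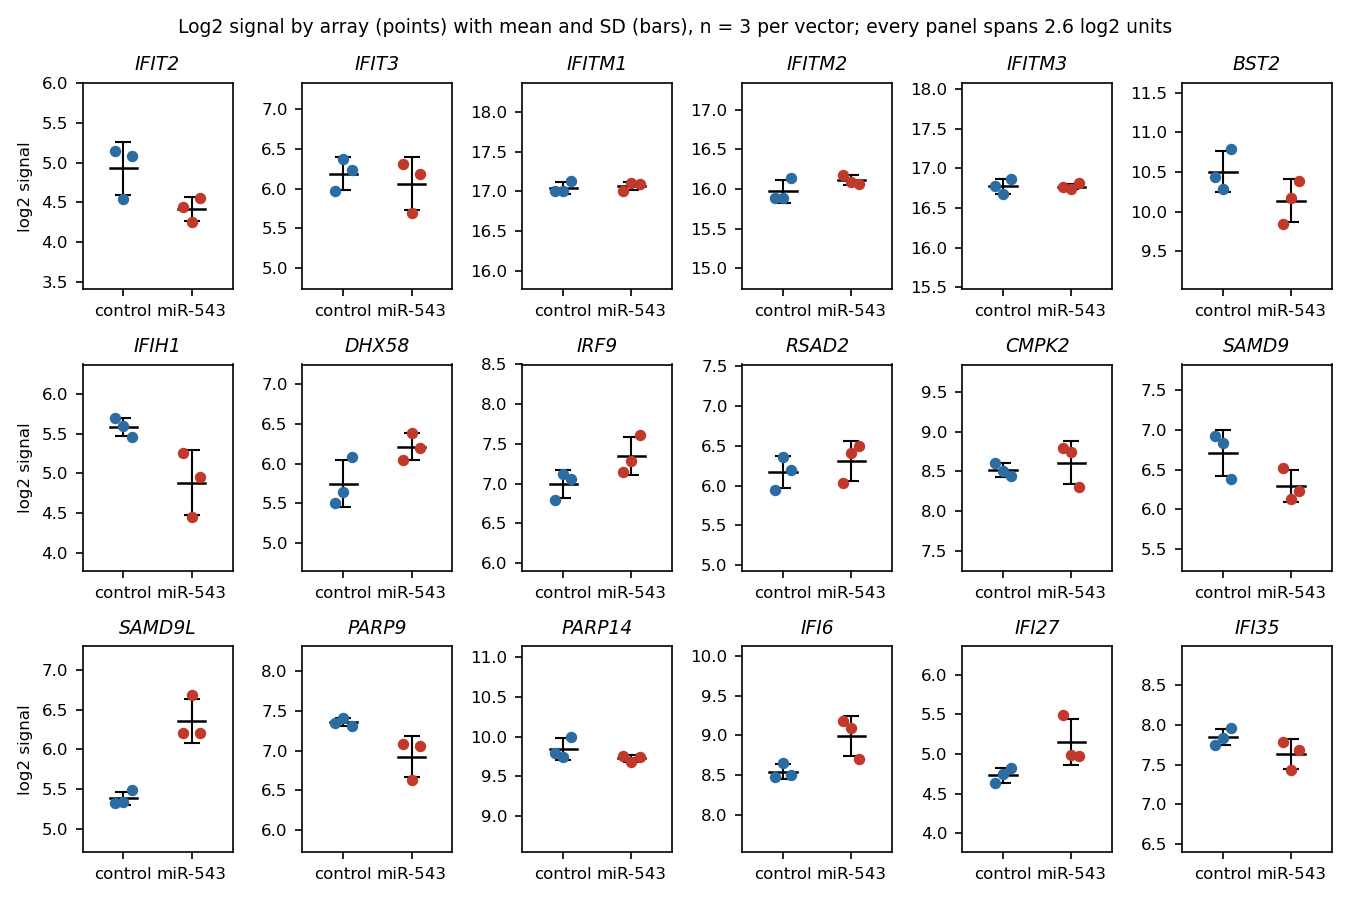
Log2 signal on each array for the 18 members that lay above the array median or had an unadjusted p under 0.05, with the mean and SD of 3 arrays per vector. The vectors separate fully for SAMD9L, IFIH1, PARP9, IFI6, IFI27 and IRF9, while the IFITM panels are nearly flat.

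Sensing of viral RNA in the cytoplasm falls to the RIG-I family. IFIH1 encodes MDA5, which detects long double-stranded RNA, and it read 5.69, 5.59 and 5.46 on the control arrays and 5.25, 4.45 and 4.95 on the miR-543 arrays. Every miR-543 array was lower, and the log2 change of -0.70 (95% interval -1.14 to -0.26), or 61.7% of the control level, did not pass (adjusted p = 0.236). DHX58 encodes LGP2, a relative without signalling domains that modulates the other sensors, and it read 5.51, 5.65 and 6.08 against 6.05, 6.39 and 6.20. Control replicate 3 overlapped the miR-543 arrays, and the log2 change was 0.47 (95% interval 0.07 to 0.86, adjusted p = 0.398). Both sensors lay below the array median on average, IFIH1 at 5.23.

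Of the transcription factors, IRF9 is the DNA-contacting part of the complex that type I interferon receptors activate. It read 6.79, 7.12 and 7.06 on the control arrays and 7.15, 7.29 and 7.61 on the miR-543 arrays, with the groups just apart and a log2 change of 0.36 (95% interval -0.01 to 0.73, adjusted p = 0.488). IRF7, the factor that amplifies type I interferon transcription, lay under the lower quartile at 3.36 ± 0.036 and 3.19 ± 0.070 (SD, n = 3). Its arrays did not overlap between vectors, and its log2 change was -0.17 (adjusted p = 0.710).

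Among proteins that act on virus particles and membranes, the IFITM family hardens membranes against viral fusion. IFITM1 read 17.00, 17.00 and 17.13 on the control arrays and 17.01, 17.11 and 17.09 on the miR-543 arrays. IFITM3 read 16.78, 16.68 and 16.87 against 16.76, 16.74 and 16.81, and IFITM2 15.89, 15.89 and 16.14 against 16.18, 16.09 and 16.06. All 3 lay near the top of the array range, where the highest probe set averaged 17.80, and their vectors overlapped. Whether signals this high still follow the amount of RNA was not tested, so their intervals describe signal only. Log2 changes were 0.03 for IFITM1 (95% interval -0.27 to 0.32), 0.14 for IFITM2 (-0.17 to 0.45) and -0.01 for IFITM3 (-0.30 to 0.29). The change of IFITM3 was positive after a further quantile normalization (0.0025), without control replicate 3 (0.04) and without miR-543 replicate 2 (0.0083). The 3 IFITM genes are close copies on chromosome 11, and probes may read more than 1 of them. BST2, or tetherin, which holds budding virus at the cell surface, read 10.44, 10.28 and 10.79 against 9.85, 10.17 and 10.39. The vectors overlapped, with a log2 change of -0.37 (95% interval -0.78 to 0.05, adjusted p = 0.539).

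IFIT proteins bind viral RNA with foreign ends and block its translation, and their 4 genes lie together on chromosome 10. IFIT3, which stabilises IFIT1, read 5.97, 6.37 and 6.23 on the control arrays and 6.31, 5.69 and 6.19 on the miR-543 arrays. Its log2 change was -0.13 (95% interval -0.55 to 0.29). IFIT2, the family member linked to cell death, read 5.15, 4.55 and 5.09 against 4.44, 4.26 and 4.56. Control replicate 2 lay among the miR-543 arrays, and the log2 change was -0.51 (95% interval -0.92 to -0.10, adjusted p = 0.365). IFIT1 and IFIT5 had log2 changes of -0.37 and 0.41 at means of 4.64 and 3.89, and neither passed (adjusted p = 0.574 and 0.585).

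OAS enzymes make the 2-5A messenger that activates an antiviral nuclease, and OASL is a relative that assists RIG-I. The 4 OAS genes averaged 2.96 to 5.62 over the 6 arrays, none above the array median, and their log2 changes of 0.04 to 0.15 were all within intervals of -0.29 to 0.54. RSAD2 encodes viperin, which converts CTP to a chain-terminating nucleotide, and it read 5.95, 6.36 and 6.20 on the control arrays and 6.03, 6.41 and 6.50 on the miR-543 arrays. CMPK2, the mitochondrial nucleotide kinase whose gene adjoins RSAD2 on chromosome 2, read 8.61, 8.50 and 8.44 against 8.79, 8.74 and 8.30. Both overlapped between vectors, with log2 changes of 0.14 (95% interval -0.24 to 0.53) and 0.09 (-0.27 to 0.46). The exonuclease ISG20 averaged 5.60 with either vector. The GTPase genes MX1 and MX2, whose products trap viral nucleocapsids, averaged 4.05 and 3.79 over the arrays, with log2 changes of 0.11 and -0.45 (adjusted p = 0.850 and 0.490).

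ISG15, a ubiquitin-like protein that is among the most abundant products of an interferon response, averaged 4.93 ± 0.15 on the control arrays and 5.20 ± 0.38 on the miR-543 arrays (SD, n = 3). Its 95% interval ran from -0.16 to 0.70. The ligase HERC5, which attaches it, lay at the foot of the array range with 2.58 ± 0.19 and 2.59 ± 0.22 (SD, n = 3). USP18, which removes ISG15 and blocks the type I receptor, had a log2 change of -0.29 (95% interval -0.85 to 0.27). TRIM22, an antiviral ubiquitin ligase, had one of 0.37 (adjusted p = 0.568) at a mean of 3.95.

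PARP9 and PARP14, members of the ADP-ribosyltransferase family that modulate interferon signalling, lie near each other on chromosome 3. PARP9 read 7.35, 7.41 and 7.31 on the control arrays and 7.09, 6.63 and 7.06 on the miR-543 arrays. All miR-543 arrays were lower, and the log2 change of -0.43 (95% interval -0.78 to -0.08) did not pass (adjusted p = 0.383). PARP14 read 9.79, 9.74 and 10.00 against 9.76, 9.68 and 9.74, overlapping, with a log2 change of -0.12 (95% interval -0.42 to 0.19).

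The IFI genes are named for induction by interferon and have diverse roles. IFI6, a mitochondrial and endoplasmic reticulum protein that opposes apoptosis and flavivirus replication, read 8.47, 8.65 and 8.50 on the control arrays and 9.18, 9.09 and 8.70 on the miR-543 arrays. Its arrays did not overlap, and the log2 change of 0.45 (95% interval 0.09 to 0.81) did not pass (adjusted p = 0.365). IFI27, a related mitochondrial protein, read 4.63, 4.75 and 4.82 against 5.49, 4.99 and 4.98, also without overlap, with a log2 change of 0.42 (95% interval 0.04 to 0.80, adjusted p = 0.417). IFI35, which partners with NMI, read 7.75, 7.84 and 7.96 against 7.79, 7.43 and 7.69, with overlap and a log2 change of -0.21. IFI44, IFI44L and XAF1, an antagonist of the apoptosis inhibitor XIAP, had log2 changes of 0.13, 0.16 and -0.12 at means of 4.13, 2.96 and 5.08.

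Members above the array median and the others were also set apart. Of the 13 above it 0 were called (limma) and 3 had an unadjusted p under 0.05 (IFI6, SAMD9 and PARP9), beside 0.923% and 12.8% of all probe sets above the median. Changes lay above 0 for 6 and below for 7, and their median was -0.01. All 13 intervals lay within a 2-fold change, between -0.82 and 0.81, as did 96.2% of those of all probe sets above the median. Of the 22 not above it 1 was called and 5 had an unadjusted p under 0.05, beside 0.214% and 8.43% of all probe sets not above the median. Changes lay above 0 for 14 of the 22 (63.6%) and for 54.3% of those probe sets, with medians of 0.11 and 0.02. Intervals lay within a 2-fold change for 20 of the 22 and for 97.1% of those probe sets, and at such low signals they describe signal only. On the single arrays the median of the 13 was 8.44 to 8.50 on the control arrays and 8.30 to 8.79 with the miR-543 vector. The 18 genes whose promoters hold the response element core had a median change of 0.02, with 10 above 0, and the 8 without it a median of 0.07, with 5 above 0.

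**Figure D3:**
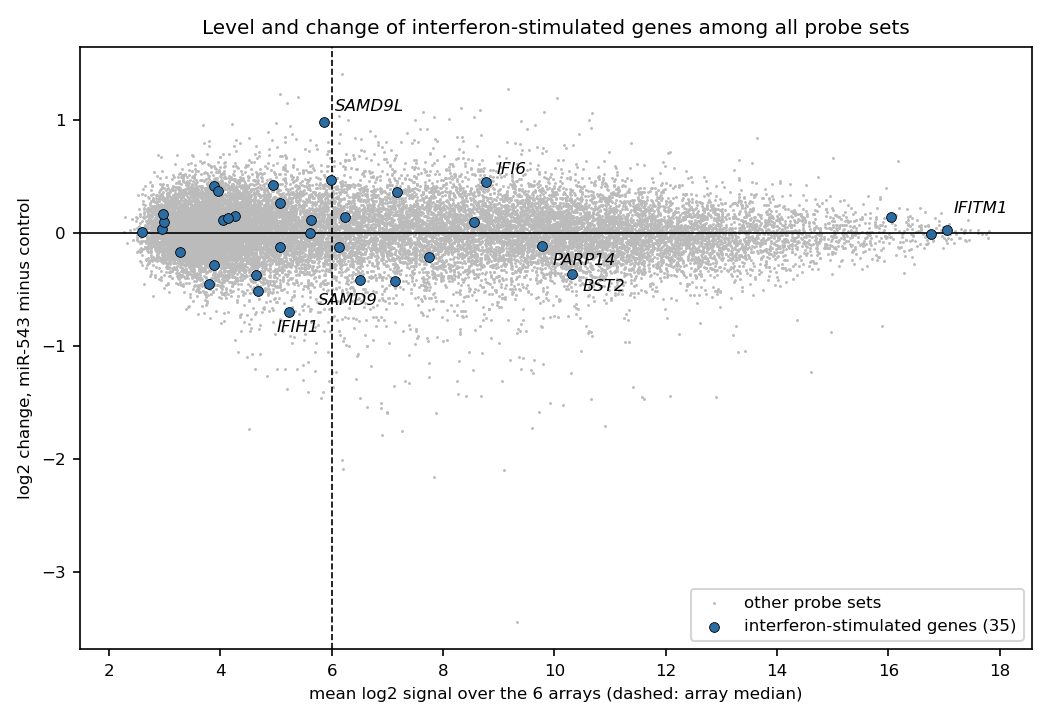
Mean log2 signal over the 6 arrays against log2 change for all 21448 probe sets (grey) and the 35 genes (blue), with the array median dashed. Among the 35 genes SAMD9L lies highest at 0.98 and IFIH1 lowest at -0.70, while other probe sets reach beyond both, and IFITM1 sits far right at 0.03.

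The rest of the pathway was followed in 7 lists, also chosen with earlier results known, so their shares are descriptions too. Of their 98 genes 88 were measured, of which 1 (1.14%) was called, beside 0.569% of all probe sets. At an unadjusted p under 0.05 there were 12 (13.6%, beside 10.6%), and 16 (18.2%, beside 15.4%) had no overlap between vectors. Ligands were low throughout: 0 of 20 interferon genes averaged above the array median, and 0 were called or had an unadjusted p under 0.05 (limma). The smallest p-values among them went with log2 changes of 0.30 for IFNA17, 0.38 for IFNA6 and -0.33 for IFNA4. Of the receptor genes 5 of 6 averaged above the array median. The type I receptor chains IFNAR1 and IFNAR2 had log2 changes of 0.01 (95% interval -0.34 to 0.36) and -0.08 (-0.41 to 0.25). IFNGR2, a chain of the interferon gamma receptor, read 13.01, 13.08 and 13.17 on the control arrays and 13.64, 13.61 and 13.40 on the miR-543 arrays. Its log2 change of 0.46 and that of its partner IFNGR1, 0.36, did not pass (adjusted p = 0.270 and 0.414), although neither gene's arrays overlapped, and the lambda receptor chain IFNLR1 had one of 0.31 (adjusted p = 0.571).

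Of the receptor kinases, JAK2 had a log2 change of 0.45 (adjusted p = 0.422), TYK2 0.13 and JAK1 -0.02. Among the other interferon regulatory factors 0 of 6 were called and 1 had an unadjusted p under 0.05, beside 0.569% and 10.6% of all probe sets. That factor was IRF2, a repressor of the response, at 0.40 (adjusted p = 0.443). IRF3, the factor that sensors switch on first, had a log2 change of -0.34 (adjusted p = 0.549) at a mean of 4.015. IRF8 had one of 0.18 at a mean of 2.835, and 1 of the 6 factors averaged above the array median. Of 7 inhibitors of signalling 0 were called and 0 had an unadjusted p under 0.05, beside the same shares of all probe sets. Log2 changes were 0.27 for the phosphatase PTPN6, 0.16 for CISH and 0.14 for PIAS4.

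The called gene was IFI16, a nuclear and cytoplasmic sensor of DNA. IFI16 read 6.86, 6.88 and 6.50 on the control arrays and 5.94, 5.50 and 5.82 on the miR-543 arrays, fully apart. It fell by 0.99 on the log2 scale (SE 0.17, 95% interval -1.37 to -0.61, adjusted p = 0.0373), a change near that of SAMD9L in size and opposite in sign. That call too was lost without any 1 array, at adjusted p-values of 0.177, 0.141 and 0.0580 when control replicate 1, 2 or 3 was left out and 0.0768, 0.132 and 0.104 when miR-543 replicate 1, 2 or 3 was. Of the other sensors and adaptors, MYD88 had a log2 change of -0.43 and STING1, the adaptor of DNA sensing, one of 0.35 (adjusted p = 0.444 and 0.471).

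Other interferon-induced genes divided in sign. Of 31 measured 0 were called (limma), beside 0.569% of all probe sets, and 2 were higher and 3 lower at an unadjusted p under 0.05 (16.1% in all, beside 10.6%). The vectors did not overlap for 8 (25.8%, beside 15.4%), and 13 (41.9%, beside 52.3%) lay above 0, with a median of -0.04. PSMB8 and PSMB9 encode subunits of the immunoproteasome, which trims peptides for display on MHC class I. PSMB8 read 6.53, 6.65 and 6.68 on the control arrays and 5.96, 5.71 and 5.95 on the miR-543 arrays, and PSMB9 read 7.77, 7.90 and 7.88 against 8.45, 8.50 and 8.43. Each was fully apart between vectors, in opposite directions, with log2 changes of -0.75 and 0.61 that did not pass (adjusted p = 0.0543 and 0.0975). PML, the scaffold of nuclear bodies, had a log2 change of -0.77 (adjusted p = 0.153).

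**Figure D4:**
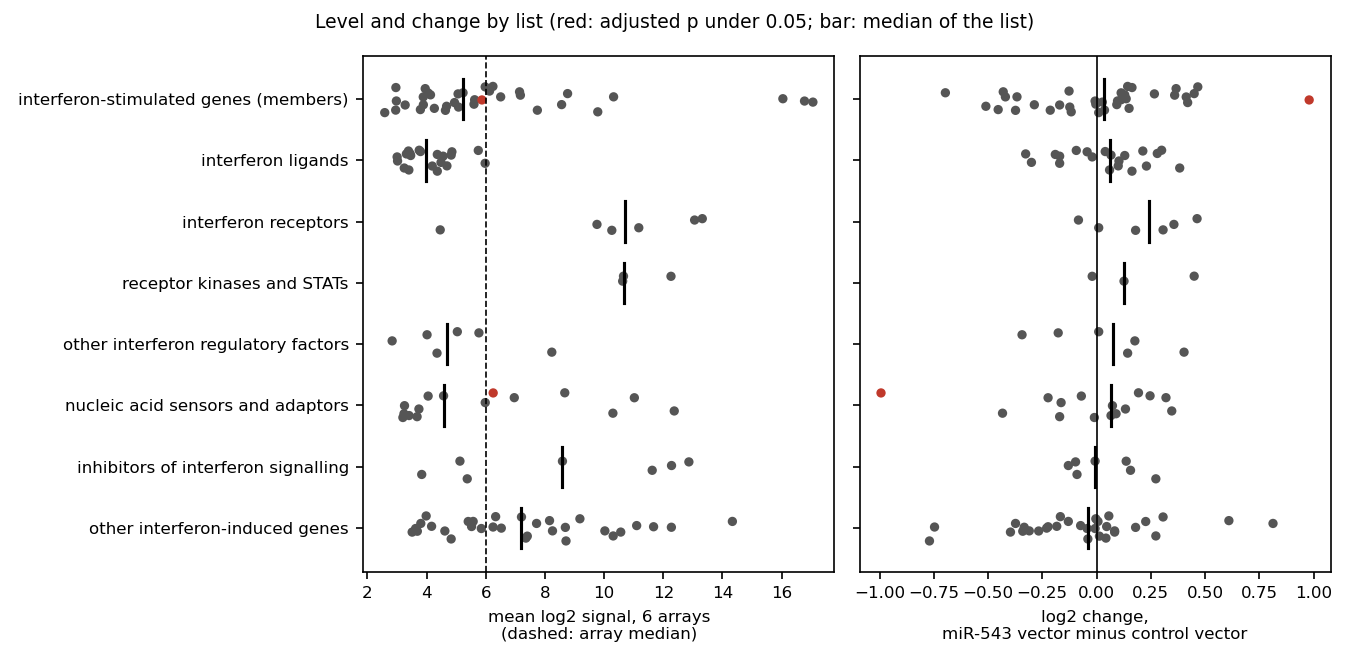
Mean log2 signal (left) and log2 change (right) for the 35 members and the 7 lists of pathway genes, with a bar at each list's median. SAMD9L at 0.98 and IFI16 at -0.99 are the 2 red points, ligands all lie left of the array median and receptors mostly right of it.

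The line's identity was checked on marker genes. All 7 measured K562 markers lay above the array median, from EPOR at 6.39 and KLF1 at 7.14 to HBE1, HBZ and GATA1 at 15.76, 15.63 and 15.66, and KLF1 and TAL1 had log2 changes of 0.66 and 0.41 (adjusted p = 0.106 and 0.371). Of 26 measured markers of monocytes, plasmacytoid dendritic cells, lymphocytes, epithelium and fibroblasts 9 also lay above the array median, among them LYZ at 15.20, EPCAM at 13.54, KRT19 at 12.55, TCF4 at 11.32 and CD3D at 10.89, while CD14, CLEC4C and MS4A1 averaged 4.49, 3.36 and 3.17. Limma called 0 of these 26, beside 0.569% of all probe sets. At an unadjusted p under 0.05 there was 1 (3.85%, beside 10.6%), CD3D (log2 change 0.64). In bulk samples of this kind, fewer cells with a transcript and less of it per cell cannot be told apart. Array medians were 5.99 to 6.01, and Pearson's r across probe sets was 0.9945 to 0.9957 within a vector and 0.9931 to 0.9951 between vectors.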

How the data were processed

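Expression was measured on 6 arrays of K562 cells, 3 with each vector, grouped by the sample titles. The authors deposited log2 signals per probe set, given to 2 decimals, made, per the submitters' processing notes, with Transcriptome Analysis Console 4.0 and RMA, which corrects background, normalizes between arrays and summarises probes. RMA can compress changes at low signal. The RMA variant and genome build are not given in the sources used here. Precision is limited by the number of arrays.

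Gene symbols came from the platform annotation: 17709 probe sets had 1 symbol, 0 several and 3739 none. All 35 member identifiers matched the RefSeq gene table of GRCh38.p14, with 35 symbols unchanged and 0 members with several probe sets, so the rule of the highest mean decided nothing. Limma 3.58.1 (R 4.3.3, lmFit and eBayes, no trend, filter or block) was fitted to all 21448 probe sets, with two-sided p-values adjusted by Benjamini-Hochberg over all of them. Intervals are 95% intervals and SE is moderated. Permutation tests were exact and two-sided. The fit was also run on simulated arrays with known changes. Its recovery of changes as small as most of those seen here is not given, so that run is no measure of power for them.

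All members are accounted for. Array values are given for those above the array median or at an unadjusted p under 0.05, and up to 3 genes of smallest p per pathway list are named, with IFNAR1, IFNAR2 and IRF3 always. The members and lists were chosen with earlier results of these data known. Alternatives were array scaling, the variance prior, a level filter, leaving out each array, a replicate block and other level limits.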

Additional observations from a re-analysis of the deposited data

How the results depend on the processing

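Over 11 alternative fits SAMD9L kept its direction wherever it was tested and no other member was ever called. The sign of the change held for 27 of the 35 genes, and IFIT3, ISG20, OAS1, OAS3, IFITM3, XAF1, USP18 and HERC5 turned in at least 1 fit, USP18 over a range of -0.47 to 0.02. Keeping only probe sets at or above the median level left 13 members, of which 0 were called, 4 had an unadjusted p under 0.05 and 13 had intervals within a 2-fold change, with a median change of -0.0067. Leaving out 1 array at a time gave 0 calls in each case, 5 to 9 members at an unadjusted p under 0.05, 29 to 32 intervals within a 2-fold change, medians of 0.02 to 0.06 over all members and -0.04 to 0.04 over those above the array median, and 13 to 14 members above it. The number above the limit was 26 with the lower quartile and 5 with the upper quartile. Equal array medians, a further quantile normalization and the trend and robust prior each kept 1 call, 8 members at an unadjusted p under 0.05 and 33 intervals, while calls over all probe sets numbered 252 with that prior and 34 to 59 without 1 array, against 122.

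The replicate numbers are shared by the vectors, but deviations of same-numbered arrays correlated at 0.095, -0.053 and 0.018, and only for number 1 did both arrays correlate best with each other, so the numbers were not taken as pairs. With the replicate block 0 members were called (SAMD9L adjusted p = 0.0888, IFI16 0.0927), 11 had an unadjusted p under 0.05, and 71 probe sets were called in all. Signal over background was not tested, which limits the 22 members not above the array median.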
